A study of Mus musculus with 24 samples.

Results

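Gas5, Snhg1, Snhg3, Snhg5, Snhg6, Snhg8, Snhg12 and Zfas1 are noncoding genes whose transcripts are spliced and polyadenylated like messenger RNAs but whose introns carry small nucleolar RNAs (snoRNAs). These 8 genes were taken by name from the 24079 rows of a gene count table; 7 stood under their symbols, and Zfas1 stood under its older name 1500012F01Rik and was matched by its gene identifier, 68949. The table holds 24 mouse libraries, 3 from each of 8 groups. The groups cross brain region (nucleus accumbens or dorsal striatum), genotype (rpS6 knockin mice or their wild-type littermates) and kind of RNA (Heavy or Total). In the knockin, made by crossing heterozygous mice on a mixed C57Bl/6/Sv129/ICR background, every phosphorylation site of ribosomal protein S6 is replaced by alanine, mice of both sexes were used, their age is not given in the sources used here, and each replicate pooled tissue of several mice. Total RNA was set aside from the lysate of dissected tissue, and Heavy RNA came from the sucrose gradient fractions of that lysate in which each RNA carries several ribosomes. Levels are scaled to the reads of each library. The ratio of Heavy to Total therefore reports how much of an RNA is found in those fractions, relative to other genes. The ratio is not the share of an RNA that is on polysomes. RNAs that carry fewer ribosomes fall outside Heavy RNA, so a low ratio does not tell few ribosomes from none.

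Most snoRNAs guide the chemical modification of ribosomal RNA, and they are cut out of introns once the host transcript has been spliced. The spliced remainder of a noncoding host carries no long open reading frame, yet several hosts begin with a 5′ terminal oligopyrimidine (TOP) tract, the cap-adjacent run of C and T that also begins the messenger RNAs of ribosomal proteins and that links their translation to growth signals. Ribosomes that start on the short reading frames of a host soon meet a stop codon far upstream of the last exon junction, and such transcripts, Gas5 among them, are known substrates of nonsense-mediated decay.

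The 8 genes lie on 6 chromosomes of GRCm38.p6: Gas5 at chr1:161034601-161038539 (+ strand), Snhg6 at chr1:9942025-9944118 (−), Zfas1 at chr2:167062934-167065862 (+), Snhg8 at chr3:123507552-123508336 (−), Snhg12 at chr4:132308678-132311024 (+), Snhg3 at chr4:132351933-132353686 (−), Snhg5 at chr9:88521052-88522897 (−) and Snhg1 at chr19:8723487-8726326 (+). Their annotated transcripts have median lengths between 437 bases (Snhg3) and 915.5 bases (Snhg12), and the longest reading frame in any of them spans 35 codons in Snhg8 and 90 codons in Zfas1. RefSeq places 29 snoRNAs inside the 8 genes, with 8 each in Gas5 and Snhg1, 4 in Snhg12, 3 in Zfas1, 2 each in Snhg3 and Snhg5, and 1 each in Snhg6 and Snhg8. Only 9 of these snoRNAs have a row of their own in the table, with 782 reads in all over the 24 libraries against 68074 reads for the host rows, and libraries selected for poly-A tails leave out most snoRNAs.

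The first bases of the hosts are shown because the TOP tract is the feature that several of them share with ribosomal protein genes. Each line gives 10 bases before and 20 bases from an annotated start on the RefSeq promoter entries (GRCm38.p6), 5′ to 3′ on the gene's strand, with the longest run of C and T that begins with C in capitals. Snhg6 has no entry there and is only named, and Gas5 has 2 annotated starts.
Gas5, start 1 (chr1:161034591-161034620): gcgggCCCgcgagctcgacagcccggagcc
Gas5, start 2 (chr1:161035156-161035185): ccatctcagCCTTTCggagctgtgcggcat
Snhg1 (chr19:8723477-8723506): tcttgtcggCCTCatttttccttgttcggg
Snhg3 (chr4:132353667-132353696): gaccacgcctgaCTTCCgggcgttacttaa
Snhg5 (chr9:88522878-88522907): gcggtgaaccgggctcgttCTTTTacgacg
Snhg8 (chr3:123508317-123508346): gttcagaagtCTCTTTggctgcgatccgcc
Snhg12 (chr4:132308668-132308697): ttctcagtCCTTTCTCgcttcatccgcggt
Zfas1 (chr2:167062924-167062953): tgcgCCCCgggcggccgcaggtctcggctg

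The runs of Snhg12 (8 bases), Snhg8 (6 bases) and the second Gas5 start (6 bases) cover the annotated start or begin on it. A run of at least 6 such bases anywhere in the same window stood in 22% of all 32851 promoter entries and in 51.3% of 76 entries of ribosomal protein genes, and a run of at least 8 bases in 8.68% and 32.9%. The runs of Snhg3 and Snhg5 (5 bases each) lie downstream of the annotated start. Those of Snhg1 and Zfas1 hold 4 bases, and the run of Snhg1 covers the annotated start while that of Zfas1 ends before it. These letters describe annotated starts, and the starts used in striatal tissue were not measured here.

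The libraries held between 9280589 and 34703044 reads assigned to genes (median 16678553), and all 8 hosts had at least 1 read in every library. Gas5 took 51.3% of the hosts' reads, and the fewest reads of any host in a library was 1, for Snhg6 in the Heavy library of wild-type dorsal striatum replicate 1. Levels are given in CPM, reads of a gene per 1000000 assigned reads after scaling. The summed level of 10 medium spiny neuron markers was 4224 to 7431 CPM across the libraries, with none of the 10 at 0 in any group, as the striatal label states. The level of Rps6 itself was 270 to 488 CPM in all groups and does not check the knockin, which changes codons and not the amount of transcript. Between 15.2 and 26.1% of the reads in Total libraries, and between 0.897 and 3.85% in Heavy libraries, belonged to Bc1, a short RNA of neurons, and every edgeR comparison below was refitted without it.

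In Total RNA, Gas5 was by far the most abundant host. Per kilobase of its median transcript, its level in wild-type nucleus accumbens was 308 ± 58.2 CPM (mean ± SD, n = 3). Snhg8 followed at 63.4 ± 18.9 CPM per kilobase and Zfas1 at 52.6 ± 15.6, a pair that did not differ beyond its spread. Snhg12 (27.7 ± 2.40), Snhg6 (23.8 ± 2.13), Snhg1 (23.1 ± 9.38), Snhg3 (16.3 ± 6.55) and Snhg5 (15.6 ± 5.72) came next, and among these 5 the libraries of each neighbouring pair overlapped. In wild-type dorsal striatum Gas5 (186 ± 36.7), Snhg8 (47.1 ± 12.8) and Zfas1 (40.3 ± 8.71) again came first, followed by Snhg6 (24.2 ± 6.62), Snhg12 (18.9 ± 1.45), Snhg3 (18.2 ± 7.09), Snhg1 (16.7 ± 4.84) and Snhg5 (12.6 ± 4.72). In Heavy RNA of wild-type nucleus accumbens Gas5 stood at 64.1 ± 14.1 CPM per kilobase, and the other 7 hosts lay between 4.05 ± 3.23 (Snhg6) and 14.7 ± 5.98 (Zfas1).

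**Figure D1:**
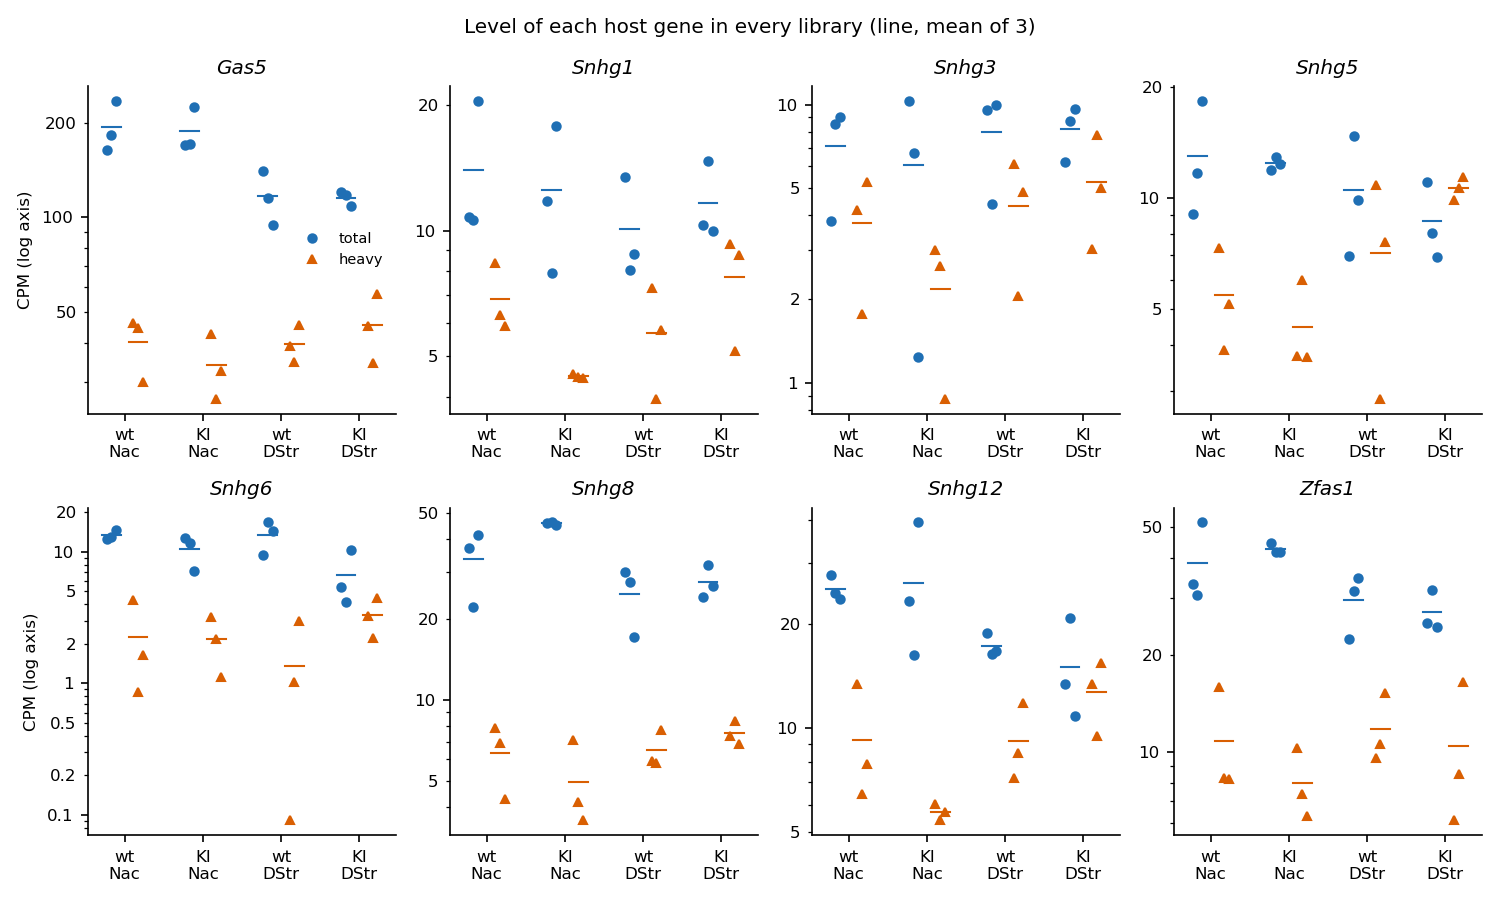
Level of each host gene in every library, in CPM on a log axis, for wild-type (wt) and rpS6 knockin (KI) mice in nucleus accumbens (Nac) and dorsal striatum (DStr); circles are Total and triangles Heavy libraries, and lines are means of 3. The Heavy libraries of Gas5, Snhg8 and Zfas1 lie below their Total libraries in all 4 conditions, and those of Snhg5 lie within or above them in knockin dorsal striatum.

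The first question was how much of each host is found in the Heavy fractions relative to other genes. Over all 24 libraries the Heavy level was below the Total level for 8 of 8 hosts at an adjusted p under 0.05 (edgeR's quasi-likelihood test, Benjamini-Hochberg over all 17365 genes tested), while 19.3% of all genes were lower and 23.6% higher. The ratio of Heavy to Total ran from 0.196 for Snhg8 to 0.599 for Snhg5. The median log2 fold change of the 8 hosts was -1.47, against 0.08 for all genes tested. The hosts were not alike, and the depletion of Snhg8, Snhg6 and Gas5 exceeded that of Snhg5, Snhg3 and Snhg1 by more than the standard errors (SE) of either.

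Among hosts of box C/D snoRNAs, the class that guides ribose methylation, Gas5 (growth arrest specific 5, a decoy of the glucocorticoid receptor) had a log2 fold change of -1.91 ± 0.09 (SE; adjusted p = 1.29e-22). Snhg6, the host of Snord87, stood at -2.25 ± 0.27 (adjusted p = 4.49e-10). Zfas1, which hosts the Snord12 family and is antisense to the start of Znfx1, stood at -1.73 ± 0.14 (adjusted p = 8.23e-15). Snhg1 (-0.98 ± 0.18, adjusted p = 6.11e-06) and Snhg5 (-0.74 ± 0.19, adjusted p = 8.30e-04) had the smaller changes. Among hosts of box H/ACA snoRNAs, most of which guide pseudouridylation, Snhg8, the host of Snora24, had the lowest value of the 8, -2.35 ± 0.14 (adjusted p = 8.78e-20). Only 0.818% of all genes were lower than Snhg8. Snhg3, the host of Snora73a and Snora73b, stood at -0.98 ± 0.27 (adjusted p = 0.00199). Snhg12, which hosts both classes, stood at -1.20 ± 0.15 (adjusted p = 2.05e-09). Snhg5, the host with the smallest change, still had only 13.1% of all genes below it. The direction and the call of all 8 hosts held in 20 of 20 other fits, each of which changed the scaling, the filter, the test or the design or left out the 2 libraries of 1 lysate. Markers of whole cell types moved with the kind of RNA too, with 5 of 10 medium spiny neuron markers called higher and 3 lower in Heavy RNA (median 0.12), 5 of 9 and 2 for oligodendrocytes (0.42), 5 of 7 and 1 for microglia (0.71), 1 of 7 and 3 for astrocytes (0.00), 0 of 6 and 1 for endothelium (-0.38), 2 of 6 and 0 for cortical excitatory neurons (0.28), and 2 of 6 and 0 for choroid plexus (-0.06). Their part in the values of the hosts was not tested.

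**Figure D2:**
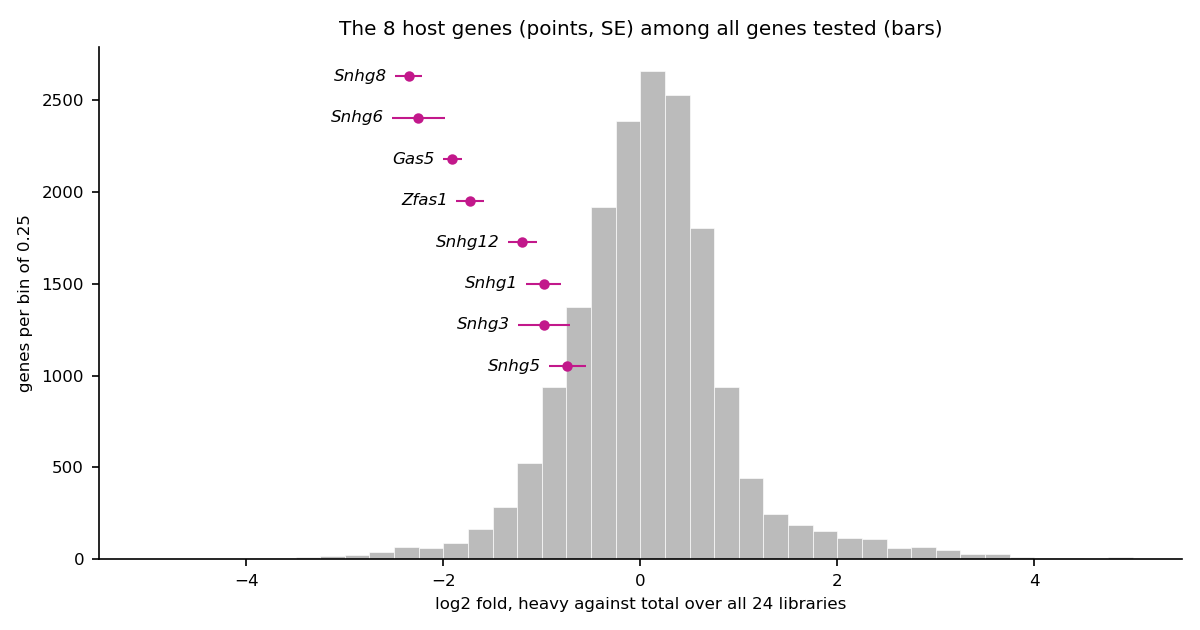
Distribution of the log2 fold change of Heavy against Total over all 24 libraries for the 17365 genes tested (grey bars, bins of 0.25), with the 8 host genes as points with SE, at heights chosen for legibility. All 8 points lie to the left of the median of all genes, 0.08, from -2.35 (Snhg8) to -0.74 (Snhg5).

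Heavy and Total libraries of the same replicate number are treated here as a lysate, so the ratio can be given lysate by lysate. This pairing left little trace in the counts. The deviations of the 12 pairs from their group means correlated between only -0.0376 and 0.0743. The ratio was below 1 in 12 of 12 lysates for Gas5, Snhg1, Snhg6, Snhg8 and Zfas1. It was below 1 in 11 of 12 for Snhg3 and Snhg12, and in 9 of 12 for Snhg5. The share of all genes with such ratios was not computed. The lowest, median and highest ratios were 0.128, 0.280 and 0.524 for Gas5, and 0.0792, 0.213 and 0.449 for Snhg8. They were 0.249, 0.554 and 0.901 for Snhg1, and 0.195, 0.618 and 1.65 for Snhg5. Snhg6 had the widest range on a fold scale, from 0.00964 to 0.608, but its lowest ratio rests on 1 Heavy read against 174 Total reads, with an exact 95% interval of 2.43e-04 to 0.0544 that covers counting error only.

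**Figure D3:**
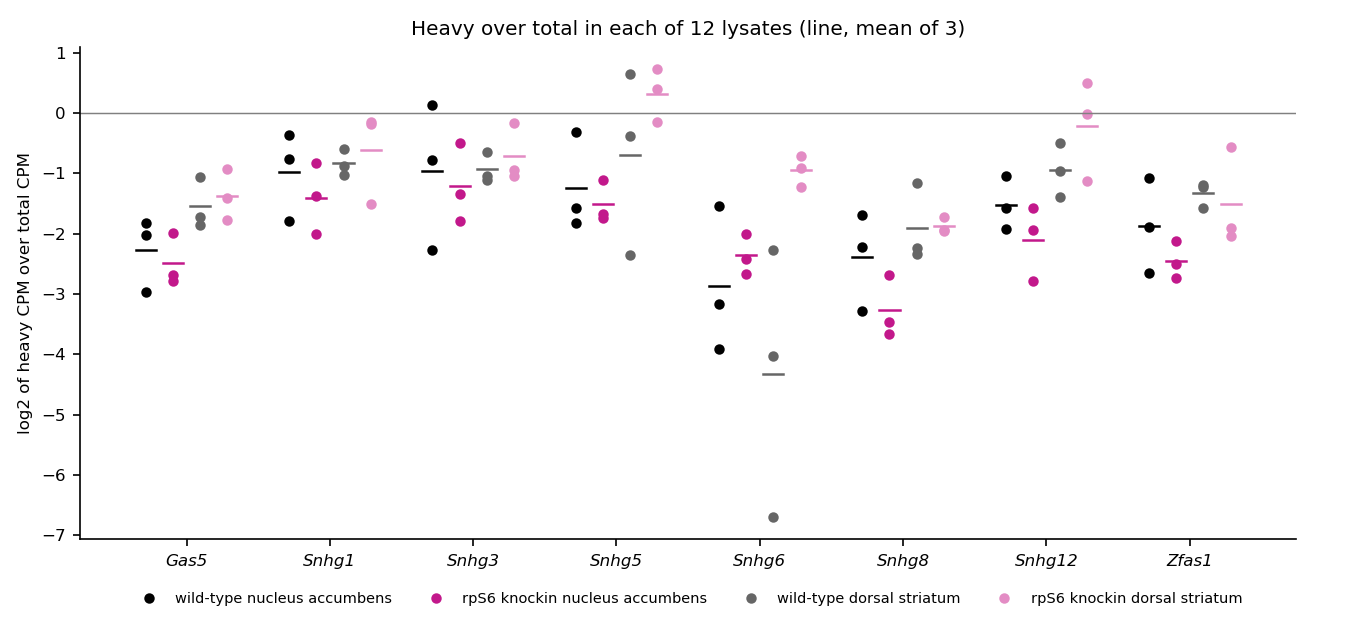
Log2 of the ratio of Heavy to Total CPM for each host gene in each of the 12 lysates, coloured by genotype and region, with lines for the means of 3. Values of Gas5 and Snhg8 lie below 0 in every lysate, while Snhg5 and Snhg12 reach or pass 0 in dorsal striatum.

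By condition, 7 of 8 hosts were called lower in Heavy RNA of wild-type nucleus accumbens (12.9% of all genes were), 7 of 8 in knockin nucleus accumbens (9.50%), 5 of 8 in wild-type dorsal striatum (11.5%) and 3 of 8 in knockin dorsal striatum (14.8%). Every call of a host in the 4 conditions was in this direction, while 25.9, 17.2, 24.3 and 28.6% of all genes were called in either direction. The 3 Heavy libraries lay below all 3 Total libraries for 7, 7, 6 and 4 of the 8 hosts in the same order, and for 16.2, 14.8, 18.6 and 18.8% of all genes. The median log2 fold changes of the hosts were -1.68, -2.27, -1.11 and -0.86 in this order, against 0.03, 0.01, 0.00 and 0.03 for all genes. Gas5, Snhg8 and Zfas1 were called in all 4 conditions, and Snhg3 in none of them, with values of -0.96 ± 0.44 and -1.52 ± 0.60 in the nucleus accumbens and -0.88 ± 0.45 and -0.67 ± 0.38 in the dorsal striatum (wild-type before knockin).

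Gas5 had Total levels of 164, 182 and 235 CPM in wild-type nucleus accumbens, 169, 171 and 224 in knockin nucleus accumbens, 141, 115 and 94.6 in wild-type dorsal striatum and 120.3, 118 and 109 in knockin dorsal striatum. Its Heavy levels were 46.2, 44.6 and 30.1, then 42.7, 26.5 and 32.5, then 39.0, 34.7 and 45.3, and then 45.1, 34.5 and 56.9 CPM. No Heavy library reached the lowest Total library, and the Heavy levels of all 4 conditions overlapped while the Total levels of the nucleus accumbens all lay above those of the dorsal striatum. The log2 fold changes of Heavy against Total were -2.31 ± 0.18, -2.50 ± 0.19, -1.56 ± 0.18 and -1.38 ± 0.16 in the same order of conditions.

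Snhg8 had Total levels of 36.8, 22.2 and 41.3 CPM in wild-type nucleus accumbens, 45.7, 45.9 and 45.0 in knockin nucleus accumbens, 29.9, 27.5 and 17.2 in wild-type dorsal striatum and 24.2, 31.9 and 26.6 in knockin dorsal striatum. Its Heavy levels were 7.89, 6.92 and 4.26, then 7.09, 4.18 and 3.56, then 5.93, 5.80 and 7.73, and then 7.34, 8.35 and 6.88 CPM. All 12 Heavy libraries lay below all 12 Total libraries. The log2 fold changes were -2.44 ± 0.27, -3.25 ± 0.27, -1.93 ± 0.29 and -1.91 ± 0.25, with adjusted p between 3.52e-09 and 8.06e-06.

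Zfas1 had Total levels of 33.2, 30.6 and 51.5 CPM in wild-type nucleus accumbens, 44.5, 41.6 and 41.7 in knockin nucleus accumbens, 22.3, 31.5 and 34.6 in wild-type dorsal striatum and 25.1, 31.7 and 24.4 in knockin dorsal striatum. Its Heavy levels were 15.8, 8.28 and 8.20, then 10.3, 7.36 and 6.30, then 9.58, 10.6 and 15.2, and then 6.12, 8.49 and 16.5 CPM. Here too every Heavy library lay below every Total library. The log2 fold changes were -1.87 ± 0.26, -2.45 ± 0.24, -1.31 ± 0.26 and -1.42 ± 0.27. On the genome, 82 exonic bases of Zfas1 are shared with Znfx1 on the opposite strand, and the counts were made with strand. In the GENCODE gene models, 189 exonic bases are also shared with Gm27494, of type misc_RNA, on the same strand, which stranded counting does not separate.

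Snhg12 had Total levels of 27.8, 24.6 and 23.6 CPM in wild-type nucleus accumbens, 23.3, 16.3 and 39.4 in knockin nucleus accumbens, 18.9, 16.4 and 16.7 in wild-type dorsal striatum and 13.5, 20.9 and 10.9 in knockin dorsal striatum. Its Heavy levels were 13.4, 6.46 and 7.90, then 6.05, 5.43 and 5.71, then 7.21, 8.46 and 11.8, and then 13.4, 9.50 and 15.4 CPM. Heavy and Total libraries were apart in the first 3 conditions and overlapped in knockin dorsal striatum. The log2 fold change was -1.49 ± 0.26 in wild-type and -2.22 ± 0.31 in knockin nucleus accumbens, -0.91 ± 0.29 (adjusted p = 0.0192) in wild-type dorsal striatum and -0.28 ± 0.28 (adjusted p = 0.523) in knockin dorsal striatum. The wild-type dorsal striatum call was lost without Total replicate 1 (-0.85, adjusted p = 0.0876) and without Heavy replicate 1 (-0.78, adjusted p = 0.0585).

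Snhg6 had Total levels of 12.4, 12.9 and 14.7 CPM in wild-type nucleus accumbens, 12.7, 11.6 and 7.11 in knockin nucleus accumbens, 9.46, 16.7 and 14.3 in wild-type dorsal striatum and 5.39, 4.18 and 10.4 in knockin dorsal striatum. Its Heavy levels were 4.30, 0.859 and 1.63, then 3.18, 2.17 and 1.12, then 0.0912, 1.02 and 2.96, and then 3.27, 2.23 and 4.45 CPM. The libraries overlapped in knockin dorsal striatum, where the Total level was lowest, and were apart elsewhere. The log2 fold change was -2.57 ± 0.42 and -2.31 ± 0.44 in wild-type and knockin nucleus accumbens, and -3.20 ± 0.54 (adjusted p = 4.23e-05) and -1.04 ± 0.46 (adjusted p = 0.0845) in wild-type and knockin dorsal striatum. Without Heavy replicate 1 the wild-type nucleus accumbens value was -3.45, and without Heavy replicate 3 the wild-type dorsal striatum value was -4.48, both still called. The knockin dorsal striatum value passed the threshold without Total replicate 2 (-1.29, adjusted p = 0.0367) and with the trend on transcript length removed (-1.18, adjusted p = 0.0491).

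Snhg5 had Total levels of 9.06, 11.6 and 18.3 CPM in wild-type nucleus accumbens, 11.9, 12.9 and 12.4 in knockin nucleus accumbens, 6.96, 14.7 and 9.87 in wild-type dorsal striatum and 11.0, 8.03 and 6.91 in knockin dorsal striatum. Its Heavy levels were 7.32, 3.89 and 5.15, then 3.73, 6.002 and 3.71, then 10.9, 2.87 and 7.60, and then 9.88, 10.6 and 11.4 CPM. The Heavy libraries lay below the Total libraries in the nucleus accumbens of both genotypes and overlapped them in the dorsal striatum of both. The log2 fold change was -1.28 ± 0.33 (adjusted p = 0.00458) and -1.48 ± 0.34 (adjusted p = 0.00340) in the nucleus accumbens, and -0.57 ± 0.40 (adjusted p = 0.343) and 0.26 ± 0.31 (adjusted p = 0.603) in the dorsal striatum. Snhg5 in knockin dorsal striatum was the one positive value among the 32 values of the 8 hosts in the 4 conditions.

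Snhg1 ranged from 7.91 to 20.5 CPM over the 12 Total libraries and from 3.96 to 9.28 over the 12 Heavy libraries. Its log2 fold change was -1.06 ± 0.31 (adjusted p = 0.0115) in wild-type and -1.50 ± 0.36 (adjusted p = 0.00408) in knockin nucleus accumbens, and -0.83 ± 0.38 (adjusted p = 0.110) and -0.63 ± 0.32 (adjusted p = 0.142) in the dorsal striatum. In wild-type nucleus accumbens, Total replicate 3 had the highest Total level of every host but Snhg12, and without it Snhg1 (-0.69, adjusted p = 0.125) and Snhg5 (-0.97, adjusted p = 0.0510) were no longer called. Snhg3, the host with the fewest reads (2310 over the 24 libraries), ranged from 1.24 to 10.3 CPM in Total and from 0.879 to 7.76 in Heavy libraries, with overlap in all 4 conditions. In knockin nucleus accumbens its value passed the threshold without Total replicate 3, its lowest Total library (-2.02, adjusted p = 0.0118), and fell in size to -0.91 (adjusted p = 0.435) without Total replicate 1. In the GENCODE gene models, 135 of its exonic bases are shared with the coding gene Rcc1 on the same strand. Union-mode counting on such models assigns reads there to neither gene. Whether the gene models behind the deposited counts overlap in this way was not checked.

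Other genes of the same kinds set the values of the 8 hosts in context. Of 7 other noncoding snoRNA hosts tested over the 24 libraries, 6 were called lower and none higher, with a median log2 fold change of -1.23. The pair among them with the most reads was Snhg11 (-0.63 ± 0.11) and Snhg4 (-1.44 ± 0.21). Of 26 ribosomal protein genes that also host snoRNAs in their introns, 19 were lower and 2 higher, with a median of -0.44, and Rpl3 stood at -0.47 ± 0.06 and Rpl21 at -0.17 ± 0.07 (adjusted p = 0.0659). Other protein-coding hosts were mixed, with 12 of 22 lower and 5 higher (median -0.23). Hspa8, a chaperone of the heat shock 70 family, stood at -0.56 ± 0.07, and Eif4a2, an initiation factor helicase, at 0.36 ± 0.06.

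Of 14 proteins of the snoRNA particle or of its assembly, 8 were called higher in Heavy RNA and 1 lower. The other 5 did not pass the test, and the median of the 14 was 0.36. Of all genes, 23.6% were called higher. Nop56, Nop58 and Dkc1 were also in the list of other protein-coding hosts. The pair with the most reads was Nhp2l1 (0.72 ± 0.09), which binds the kink-turn of box C/D snoRNAs, and Nop10 (0.44 ± 0.12), a subunit of the H/ACA particle. Of 12 nonsense-mediated decay factors, 6 were lower and 2 higher (median -0.42), with the kinase Smg1 at -0.89 ± 0.08. Of 7 long noncoding RNAs known to be retained in the nucleus, 6 were lower (median -1.03), with Meg3 at -0.77 ± 0.09 and Malat1 at -1.77 ± 0.10.

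Heavy against Total was also set beside transcript length. That length is the median over every annotated transcript model of a gene, which need not be the length of its main transcript. The transcripts present in the tissue and the lengths of their reading frames were not compared. The part of length in the values of the hosts was not tested. Over 17184 genes with an annotated length the log2 fold change of Heavy against Total fell with length, with a Spearman rho of -0.158 given as a description across genes, which are not independent replicates. The 4878 other genes with a median transcript length between 437 and 915.5 bases had a median log2 fold change of 0.17, and 18.7% of them were called lower and 32.5% higher.

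Across the 24 libraries, the genes whose log2 CPM followed the mean of the standardised levels of the 8 hosts most closely, of 11971 genes with enough reads, were Rps29 (Pearson r = 0.978), Rps12 (0.974), Rps28 (0.972), Rpl41 (0.967) and Chd3os (0.963). The first 4 encode small proteins of the ribosome, and Chd3os is an antisense noncoding RNA. Their own log2 fold changes of Heavy against Total were -2.03, -1.60, -1.69, -1.96 and -1.19. Between pairs of hosts r ran from 0.366 to 0.967 (median 0.722 over 28 pairs), and after the group means were removed from -0.286 to 0.659 (median 0.254). These correlations are descriptions over libraries that share the contrast of Heavy with Total.

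The next question was whether the hosts differ between the regions. In Total RNA every host that passed the test was higher in the nucleus accumbens. Gas5 was called in wild-type mice, with a log2 fold change of 0.75 ± 0.14 over the dorsal striatum (adjusted p = 1.05e-04), a ratio of 1.69, and 6.54% of all genes were called higher. In knockin mice 3 hosts were called higher (4.84% of all genes were), Gas5 at 0.73 ± 0.12 (adjusted p = 3.04e-05), Snhg8 at 0.75 ± 0.19 (adjusted p = 0.00605) and Zfas1 at 0.68 ± 0.20 (adjusted p = 0.0164). The medians of the 8 hosts were 0.43 and 0.68 in wild-type and knockin mice, against 0.01 and 0.00 for all genes. Gas5 kept its call in 15 of 15 other fits in either genotype. In knockin mice Snhg8 (0.67, adjusted p = 0.0560) and Zfas1 (0.64, adjusted p = 0.0866) lost theirs without dorsal striatum replicate 1, and Zfas1 also without nucleus accumbens replicate 1 (0.66, adjusted p = 0.0512) or dorsal striatum replicate 3 (0.62, adjusted p = 0.0948). Snhg12 was called without nucleus accumbens replicate 2 (1.08, adjusted p = 0.0113) or dorsal striatum replicate 2 (1.14, adjusted p = 0.0385).

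In Heavy RNA the regional order was not the same. No host was called in wild-type mice by edgeR, with 0 of 8 at an unadjusted p under 0.05 (21.0% of all genes), where 8.15% of all genes were called in either direction, and the median of the hosts was 0.00. Over all genes 762 were called higher and 554 lower there, and 495 and 1050 with the trend on transcript length removed, which moved the median of all genes from 0.03 to -0.15. The 8 hosts ran from -0.36 ± 0.44 (Snhg5) to 0.71 ± 0.90 (Snhg6). In knockin mice 2 of 8 were called lower in the nucleus accumbens (10.7% of all genes were), Snhg5 at -1.22 ± 0.30 (adjusted p = 0.00699) and Snhg12 at -1.14 ± 0.28 (adjusted p = 0.00638), and both kept their calls in 15 of 15 other fits. The remaining 6 also had negative values, with a median over the 8 hosts of -0.69 against 0.01 for all genes. Snhg1 passed the threshold without dorsal striatum replicate 2 (-0.999, adjusted p = 0.0446) and Snhg3 without dorsal striatum replicate 1 (-1.53, adjusted p = 0.0376).

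Whether the ratio of Heavy to Total differed between the regions was tested in a single model over all libraries. The depletion from Heavy RNA was larger in the nucleus accumbens for Gas5 (difference of log2 fold changes -0.92 ± 0.18, adjusted p = 0.00276) and Snhg12 (-1.25 ± 0.30, adjusted p = 0.0144), 2 of 8 hosts, while 1.55% of all genes were called in this direction and 0.599% in the other (270 and 104 genes, against 392 and 65 with DESeq2 size factors and 304 and 60 with the length trend removed). A replicate block was also fitted, which treats Heavy and Total libraries of the same replicate number as pairs. With it 4 of 8 were called, with Snhg5 at -1.20 (adjusted p = 0.0313) and Snhg8 at -0.94 (adjusted p = 0.0148) added, while the calls over all genes rose to 520 in this direction and 268 in the other. With the block and the length trend removed together, 3 of 8 were called and Snhg8 was not among them. All 8 hosts had negative values, with a median of -0.84 against 0.06 for all genes, although Snhg6 stood at 0.30 without wild-type dorsal striatum lysate 3. Zfas1 stood at -0.78 ± 0.28 (adjusted p = 0.132), Snhg1 at -0.53 ± 0.35, Snhg3 at -0.44 ± 0.53 and Snhg6 at -0.30 ± 0.52. Gas5 was called in 20 of 20 other fits and Snhg12 in 16 of 20.

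The call for Snhg12 rests on single lysates. It was lost without wild-type nucleus accumbens lysate 2 (-1.16, adjusted p = 0.0541), knockin nucleus accumbens lysate 3 (-1.04, adjusted p = 0.0926), wild-type dorsal striatum lysate 3 (-1.13, adjusted p = 0.0662) or knockin dorsal striatum lysate 3 (-1.07, adjusted p = 0.0893). In the other direction, 5 hosts were called without wild-type nucleus accumbens lysate 1 and 4 without wild-type dorsal striatum lysate 2, Snhg5 and Snhg8 among them, and the calls over all genes rose from 374 to 601 and 818 in these fits. Of the 26 ribosomal protein genes that host snoRNAs, 19 were called in the same direction as Gas5 and none in the other, with a median of -0.73, and Rpl21 stood at -0.74 ± 0.15 (adjusted p = 0.00283). Their Total levels were called higher in the nucleus accumbens for 18 of 26 in wild-type and 23 of 26 in knockin mice, as Gas5 was.

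**Figure D4:**
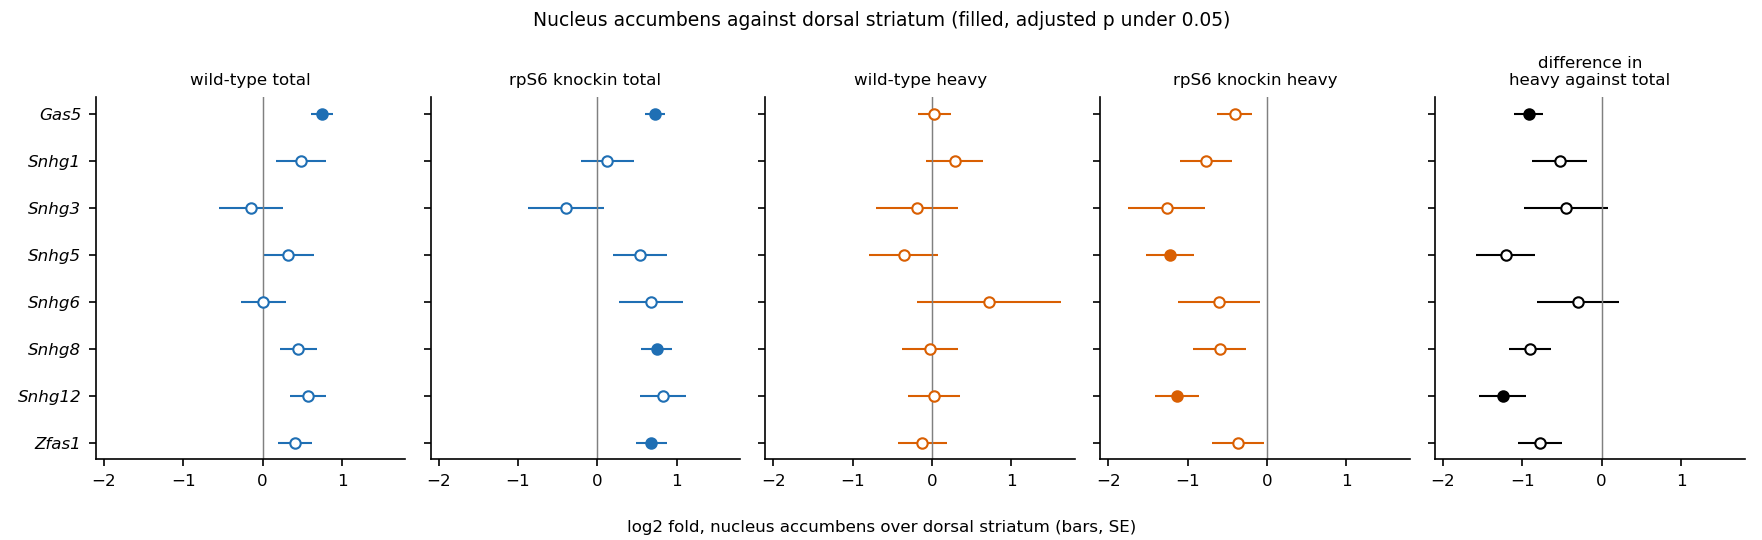
Log2 fold change of nucleus accumbens over dorsal striatum for each host gene, with SE, in Total and Heavy libraries of each genotype, and, on the right, the difference in Heavy against Total between the regions. Filled points have an adjusted p under 0.05; Gas5 is filled in both Total comparisons and in the difference, and Snhg12 in knockin Heavy libraries and in the difference.

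Levels of cell type markers also differed between the regions. In Total RNA the markers of medium spiny neurons, the main cell type of both regions, summed to 4224 to 4598 CPM in the nucleus accumbens and 4679 to 5259 CPM in the dorsal striatum, with 5 of 10 called lower and 2 higher in wild-type and 4 lower and 2 higher in knockin mice. All 6 markers of cortical excitatory neurons were called lower in the nucleus accumbens in all 4 regional comparisons, and their summed level was 65.3 to 209 CPM in the 12 nucleus accumbens libraries and 741 to 1013 CPM in the 12 dorsal striatum libraries, with none of the 6 at 0 in a group. Astrocyte markers summed to 2185 to 3040 CPM in Total libraries of the nucleus accumbens and 1702 to 2143 of the dorsal striatum, and 5 of 7 were called higher in wild-type and 3 of 7 in knockin mice. Microglia markers summed to 171 to 227 CPM and 105 to 137 CPM, with 6 of 7 and 2 of 7 called higher, and oligodendrocyte markers to 3308 to 4476 and 2936 to 3663 CPM, with 6 of 9 and 4 of 9 called higher. Choroid plexus markers were 35.4 to 55.5 and 11.6 to 19.95 CPM. Most of their reads belonged to Clic6 (11928 over the 24 libraries), while Folr1 and Kcnj13 had no read in 18 and 16 libraries. Endothelial markers were 3.25 to 15.04 and 2.95 to 9.52 CPM, with none of the 6 called in either genotype. In tissue of mixed cells, fewer cells of a type and less RNA per cell cannot be told apart, and the part of these markers in the regional values of the hosts was not tested.

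The study's own contrast was between genotypes. In none of the 4 comparisons of rpS6 knockin with wild-type was a host called by edgeR at an adjusted p under 0.05. In Heavy RNA of the nucleus accumbens 0 of 16227 genes were called (0.00%), although 21.7% of all genes had an unadjusted p under 0.05. All 8 hosts had negative values there, from -0.07 ± 0.56 (Snhg6, negative in 10 of 15 other fits and 0.82 without wild-type Heavy replicate 1) to -0.76 ± 0.47 (Snhg3), with a median of -0.38 against -0.01 for all genes. The pair with an unadjusted p under 0.05 was Snhg1 (-0.58 ± 0.27, adjusted p = 0.228) and Snhg12 (-0.67 ± 0.28, adjusted p = 0.191). Their 3 knockin Heavy libraries lay below the 3 wild-type libraries, at 4.44 to 4.52 against 5.90 to 8.36 CPM for Snhg1 and 5.43 to 6.05 against 6.46 to 13.4 CPM for Snhg12, as did those of 13.7% of all genes. DESeq2 called 951 genes in this comparison, but it gave an adjusted p to only 2 of the 8 hosts, Gas5 (0.505) and Zfas1 (0.366), and none to the 6 with lower counts.

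In Total RNA of the nucleus accumbens 0 of 8 hosts were called (0.00650% of all genes were), and Snhg8 was the host with an unadjusted p under 0.05, as 2.96% of all genes had (0.44 ± 0.21, adjusted p = 0.9996), with its knockin libraries above the wild-type ones, as for 3.87% of all genes. The difference of its Heavy to Total ratio between genotypes was -0.80 ± 0.37 (adjusted p = 0.393 from edgeR's quasi-likelihood test), with an unadjusted p under 0.05, as 11.9% of all genes had. The other 7 hosts differed by between -0.72 ± 0.40 (Snhg12) and 0.26 ± 0.61 (Snhg6), and 0.00% of all genes were called.

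In the dorsal striatum the signs were mostly the opposite in Heavy RNA, with 7 of 8 hosts positive, a median of 0.38 against 0.03 for all genes, and 0 of 8 at an unadjusted p under 0.05, where 6.42% of all genes were and 0.0440% were called. The values ran from -0.18 ± 0.33 (Zfas1) to 1.25 ± 0.81 (Snhg6). In Total RNA 0 of 8 were called (0.122% of all genes were), and Snhg6 was the host with an unadjusted p under 0.05 (9.07% of all genes), at -1.04 ± 0.33 (adjusted p = 0.232). Its Heavy to Total ratios were 0.608, 0.532 and 0.428 in the knockin lysates and 0.00964, 0.0612 and 0.206 in the wild-type lysates. The difference of log2 fold changes had an unadjusted p under 0.05, as 4.90% of all genes had, at 2.198 ± 0.71 (adjusted p = 0.931 from edgeR's quasi-likelihood test; 0.00% of all genes were called), and the lowest of its wild-type ratios is the one that rests on 1 read. For Gas5, the host with the most reads, the 95% intervals of the knockin to wild-type log2 fold change were -0.67 to 0.24 and -0.32 to 0.23 in Heavy and Total RNA of the nucleus accumbens, and -0.22 to 0.63 and -0.28 to 0.21 in the dorsal striatum.

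**Figure D5:**
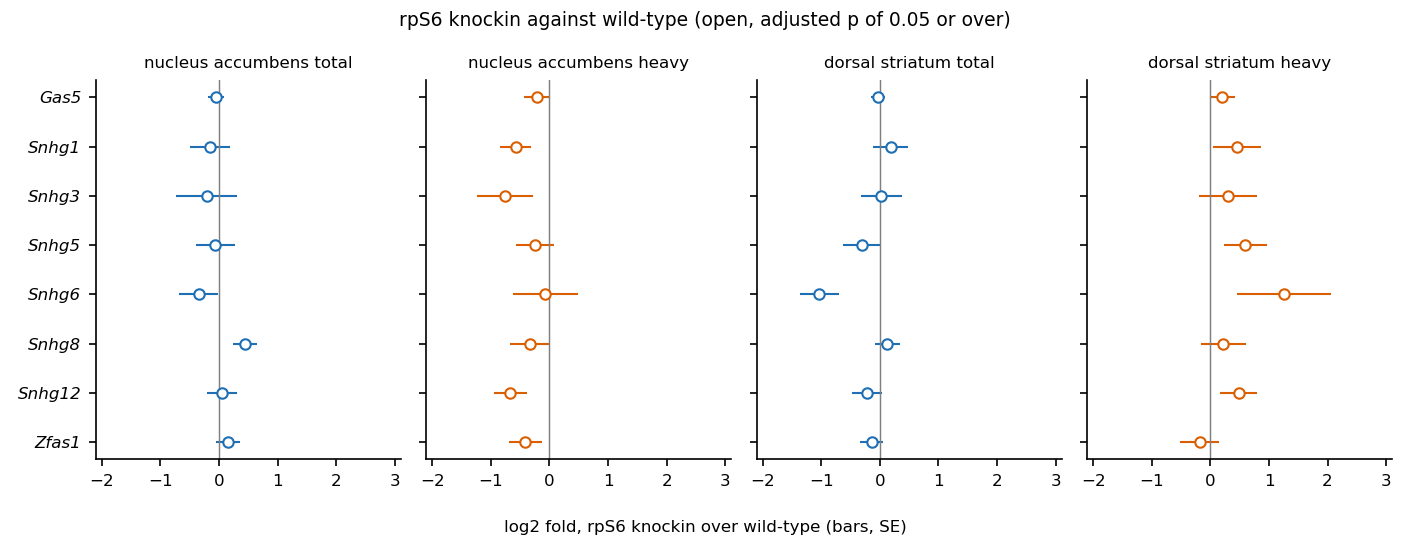
Log2 fold change of rpS6 knockin over wild-type for each host gene, with SE, in the 4 combinations of region and kind of RNA. All points are open, as none had an adjusted p under 0.05; in Heavy libraries the points lie left of 0 in the nucleus accumbens (median -0.38) and, but for Zfas1, right of 0 in the dorsal striatum (median 0.38).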

How the data were processed

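Heavy and Total RNA of 12 replicates, called lysates here, was sequenced as poly-A selected, strand-specific, single-end libraries. Each replicate pooled tissue of several mice, so p-values measure the spread between pools. The deposited values are raw counts: the authors aligned reads to mm10 with TopHat 2.0.13 and Bowtie 2.2.3, discarded alignments with excess mismatches and counted reads per gene with HTSeq 0.6.1p1 in union mode on the opposite strand. Bacterial reads in the libraries led to repeated sequencing runs, which are not told apart in the table. Poly-A selection leaves out RNAs without a tail, and assigned reads of 9280589 to 34703044 per library leave as few as 12 reads of Snhg3 and 1 of Snhg6 in a library.

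Here, all genes with at least 15 reads summed over the libraries compared were fitted in edgeR 4.0.16 (R 4.3.3; TMM scaling, quasi-likelihood F test, group means, no block), with p-values adjusted by Benjamini-Hochberg over all genes tested and a threshold of 0.05. SE is the log2 fold change divided by the square root of F, and intervals use the t quantile at the total degrees of freedom. CPM uses TMM library sizes over 24 libraries. Alternatives were DESeq2 1.42.0, its size factors, other filters, the replicate block, 1 fit of all libraries, removal of a loess trend on transcript length (span 0.5), omission of Bc1, and omission of each replicate. The fits were tested on simulated counts. The simulation drew libraries independently and changed only genes with enough reads, so it does not show how the fits behave at the lowest counts. Heavy and Total libraries with the same replicate number in the labels were treated as coming from the same lysate. The methods of the study pool Heavy fractions of separate samples in each replicate. The deviations of the 12 pairs from their group means correlated between only -0.0376 and 0.0743, with 0 above 0.1.

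The members and the gene lists (other snoRNA hosts, snoRNA particle and assembly proteins, decay factors, nuclear noncoding RNAs, cell type markers) were chosen with earlier results of these data known. All 8 members are reported in every comparison, of each other list the count, the median and the 2 genes with the most reads (with values where a result is described by that list; 1 gene is not reported here), and, as most like the members, the 5 genes with the highest correlation among those averaging at least 50 reads. Transcript lengths are medians over GENCODE M21 transcripts, and 98.4% of genes had one. Start windows come from RefSeq. Counting intervals are exact binomial at 95%.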

Additional observations from a re-analysis of the deposited data

Results flagged for a closer look

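The change of Heavy against Total differed between the regions for Gas5, by -0.92 on the log2 scale (nucleus accumbens minus dorsal striatum, averaged over the genotypes, by the interaction contrast), and in 12 lysates its ratios were 0.128 to 0.282 in the nucleus accumbens and 0.277 to 0.524 in the dorsal striatum. The same contrast gave -1.25 for Snhg12, with ratios of 0.145 to 0.483 and 0.382 to 1.42. For Gas5 the Total level was called higher in the nucleus accumbens in both genotypes and the Heavy level in neither, while for Snhg12 the Heavy level was called lower there in knockin mice.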

How the results depend on the processing

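The region difference in Heavy against Total was called for 2 of 8 hosts, for 4 with DESeq2 size factors, 5 with no filter beyond 1 read, 4 with the replicate block, and 1 to 5 when a lysate was left out; over all genes the 104 higher and 270 lower calls became 65 and 392 with DESeq2 size factors, and 374 calls became 746 without the filter, 678 by DESeq2's test, 788 with the block and 587 with the block and the length trend removed. Of the hosts' Total levels in knockin mice, 3 were called between the regions, 1 in a fit of all 24 libraries, and 1 to 4 when a replicate was left out; there the replicate block, by numbers that the labels do not tie to shared mice across regions, added Snhg12 (0.79, adjusted p = 0.0337). The block changed the calls of Snhg5 and Snhg8 in the region difference and of Snhg12 here, and no other call of a host. With no filter beyond 1 read, Snhg12 was called between regions in knockin Total (0.83, adjusted p = 0.0201) and Snhg3 in knockin Heavy RNA (-1.26, adjusted p = 0.0456), and Snhg3 was called in knockin nucleus accumbens, Heavy against Total (-1.52, adjusted p = 0.0296), and there also in 1 fit of all libraries (-1.49, adjusted p = 0.0471). In the genotype comparisons and differences, 720 alternative fits of a host gave 0 adjusted p under 0.05 (lowest 0.0812), and no adjusted p in 27, while over all genes the calls in Heavy RNA of the nucleus accumbens rose from 0 to 549 with no filter, 951 by DESeq2 and 813 in 1 fit of all libraries. Causes were not tested. No host's called value changed sign. With 3 replicates per group and as few as 1 read of Snhg6 and 12 of Snhg3 in a library, differences within the printed intervals were not detectable.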
